A study of Mus musculus with 8 samples.

Results

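The comparison described here set the transcripts of *Suz12delta* embryonic stem cells (ESCs) against those of *Eednull* ESCs, the first line carrying a truncation of SUZ12 and the second a point mutation in *Eed*. A gene entered it when its RNA-seq value was at least 1 FPKM (fragments scaled by transcript length and by the mapped fragments of the library) in either library and above 0 in both, which 15467 of the 36808 genes in the table did. The gene nearest above that limit was *Gm16624*, at 0.748 FPKM in *Suz12delta* and 1.00014 FPKM in *Eednull* ESCs, and the nearest below it was *Mc5r*, at 0.999924 FPKM in *Suz12delta* and 0.842 FPKM in *Eednull* ESCs. *Suz12delta* ESCs had a C57/BL6 background and *Eednull* ESCs a BALB/cR1 background. E14 (129/Ola) and CJ7 (129/S) were the wild-type ESC lines. Both mutant lines were also measured at day 5 of directed differentiation towards spinal motor neurons. Per the study, neither line properly activated the motor neuron program, so day 5 names a time here and not a cell type. Every line was 1 line grown on irradiated mouse embryonic fibroblasts, which were reduced by a short plating step before collection, and every condition had 1 library, so no difference below has a replicate check, an error or a p-value. CJ7 was prepared and sequenced together with the *Eednull* ESC library, and no label names a wild-type library prepared together with *Suz12delta*. The mutated subunit, the strain, the line and the preparation therefore cannot be told apart in any difference between the mutants.

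Polycomb Repressive Complex 2 (PRC2) places methyl groups on lysine 27 of histone H3, and the trimethylated form, H3K27me3, accompanies repression of developmental genes in ESCs. SUZ12 and EED are core subunits: EZH1 or EZH2 carries the catalytic site, EED binds the methylated tail and stimulates the enzyme, and SUZ12 holds the complex together. Loss of either core subunit destabilises the complex, so the comparison asks whether ESCs with different subunits of 1 complex mutated have the same transcriptome. Per the study, the H3K27me3 mark was nearly lost in both lines.

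The mutant ESC libraries were at least 2-fold apart for more genes than the wild-type pair was. Ratios were taken as log2 of (FPKM + 0.1) in *Suz12delta* over *Eednull* ESCs, on the values as deposited, which understates the difference for low genes. At least 2-fold higher in *Suz12delta* were 1652 genes (10.7% of those compared) and at least 2-fold higher in *Eednull* were 2404 (15.5%). The 2-fold counts of the lists below are read beside these shares. At 4-fold the counts were 403 (2.61%) and 427 (2.76%), which centring on the median turned to 542 and 340. The median log2 ratio was -0.19, with quartiles at -0.73 and 0.39. With every ratio centred on that median, 2171 genes (14%) were 2-fold higher in *Suz12delta* and 1698 (11%) in *Eednull* ESCs. The share of 2-fold differences that favoured *Suz12delta* thus went from 40.7% to 56.1%, and which line had more genes on its side depended on the scaling. Between the wild-type lines, over 14904 genes chosen in the same way, 569 (3.82%) were at least 2-fold higher in CJ7 and 1732 (11.6%) in E14. At 4-fold the wild-type counts were 123 higher in CJ7 and 402 higher in E14. In all, 26.2% of genes were 2-fold apart between the mutants and 15.4% between the wild types. The wild types were substrains of the same strain and the mutants were not, so this pair is no measure of a strain difference like theirs.

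**Figure D1:**
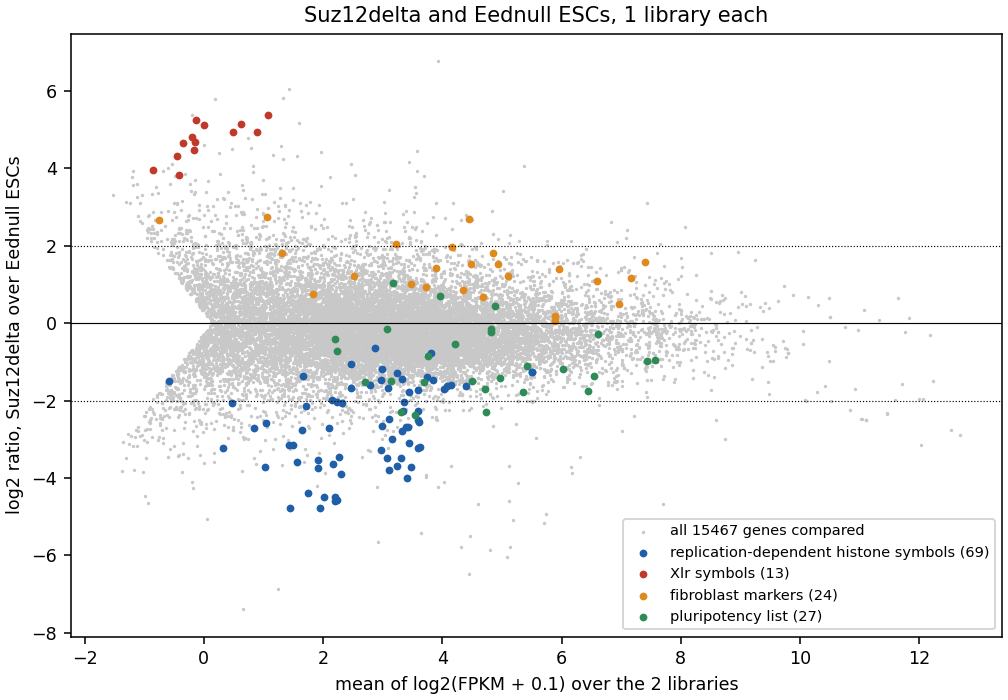
Each point is 1 of 15467 genes, with its mean log2(FPKM + 0.1) over the *Suz12delta* and *Eednull* ESC libraries on the x axis and its log2 ratio on the y axis; dotted lines mark 4-fold. Histone symbols (69) lie at -0.65 or lower and Xlr symbols (13) at 3.82 or higher, all 24 fibroblast markers lie above 0, and 24 of the 27 pluripotency genes lie below 0.

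Depth could not be read from these values. Among 3295 genes under 0.3 FPKM in both libraries, the commonest ratio, in bins of 0.02 on the log2 scale, was shared by 0.941%, so no steps of single reads appeared. FPKM summed to 389165 in *Suz12delta* and 563239 in *Eednull* ESCs, and the 10 highest genes took 7.69% and 17.5% of these sums. A further 431 genes reached 1 FPKM in one mutant and were listed at 0 in the other (226 in *Suz12delta*, 205 in *Eednull*). They were left out, since a 0 in this table can be a failed estimate, which was not tested. At day 5, a different stage, 86 of them were at 1 FPKM or more in both libraries.

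The wild-type lines placed most of the large differences on the *Suz12delta* side. Of the 403 genes 4-fold higher in *Suz12delta*, *Suz12delta* was at least 2-fold above both wild-type lines for 314 (77.9%), where it was so for 11.6% of all genes compared, and *Eednull* was at least 2-fold below both for 34 (8.44%), against 1.49% of all genes. Of the 427 genes 4-fold higher in *Eednull*, *Suz12delta* was at least 2-fold below both wild types for 292 (68.4%), against 11.9% of all genes, and *Eednull* was above both for 97 (22.7%), against 5.66%. The same 2 mutant values enter the choice of these genes and their position, so the counts are a description. CJ7 was prepared with *Eednull*, and the part of that in these positions was not tested.

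*Suz12* (chromosome 11, 79806608 to 79847625, plus strand, NCBI build 37 throughout) was at 6.21 FPKM in *Suz12delta* and 35.7 FPKM in *Eednull* ESCs, with 41.3 FPKM in E14 and 53.1 FPKM in CJ7, so *Suz12delta* alone was low, by 5.67-fold against *Eednull*. At day 5 the gap was smaller, 11.6 FPKM against 17.6 FPKM. A point mutation need not change a transcript's level, so *Eed* (chromosome 7, 97103166 to 97129493, minus strand) does not check the *Eednull* label: it was at 42.4 FPKM in *Eednull*, within the wild-type values of 32.7 and 50.9 FPKM, and at 18.8 FPKM in *Suz12delta* ESCs. Some other subunits were less than 2-fold lower in *Suz12delta*. Annotated transcripts overlap many of the genes named here, for example *Suz12*, *Ezh2*, *Mtf2*, *Sox2*, *Nr1h5* and *Prrx1*, so reads at such genes can be shared. *Ezh2*, the main catalytic subunit in ESCs, was at 37 FPKM against 66.7 FPKM, the accessory factor *Mtf2* at 37.5 FPKM against 70.8 FPKM, and *Jarid2*, which helps recruit the complex, at 16.8 FPKM against 32.6 FPKM. Of 11 subunit genes, 2 (*Suz12* and *Eed*) were 2-fold higher in *Eednull* and 1, *Phf1*, in *Suz12delta* ESCs (3 against 1.4 FPKM), with a median log2 ratio of -0.67 beside -0.19 for all genes. These counts are near the shares over all genes, 15.5% and 10.7%.

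PRC1 is the partner complex that binds H3K27me3 through its CBX subunits and ubiquitinates histone H2A. Of its 21 subunit genes none was 2-fold higher in *Suz12delta* and 5 were 2-fold higher in *Eednull* ESCs, namely *Cbx2*, *Cbx7*, *Pcgf6*, *Phc1* and *Rybp*. *Phc1* was at 49.3 FPKM in *Suz12delta* and 107 FPKM in *Eednull*, with 145 FPKM in E14 and 133 FPKM in CJ7. *Rybp* was at 11.5 FPKM against 32.0 FPKM. Their median, -0.29, was near that of all genes.

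Developmental genes that the study names were lower in *Suz12delta* than in *Eednull* ESCs in 14 of 20 cases. Of these 20, which include motor neuron genes and genes of other germ layers, 10 were at least 2-fold higher in *Eednull* and 1 in *Suz12delta* ESCs, with a median log2 ratio of -0.89. The study chose these names with these samples at hand, so they are not independent evidence of a direction. *Olig2*, a transcription factor of motor neuron progenitors on chromosome 16 (91225795 to 91228922, plus strand), was at 0.0436 FPKM in E14 and 0.0250 FPKM in CJ7, at 1.12 FPKM in *Suz12delta* and at 5.19 FPKM in *Eednull* ESCs. Both mutants were thus above both wild types, and *Eednull* was 4.34-fold above *Suz12delta*. *Lhx9*, a LIM homeobox gene, was the one that went the other way, at 5.26 FPKM in *Suz12delta* and 1.17 FPKM in *Eednull*, with 0.588 and 0.711 FPKM in the wild types. *Pax6*, a regulator of eye and neural progenitors, was low in *Suz12delta* alone, at 0.615 FPKM beside 5.69 FPKM in *Eednull*, 8.99 FPKM in E14 and 15.7 FPKM in CJ7. The antisense transcript Pax6os1 and the neighbour *Elp4* overlap *Pax6* on the other strand, and whether strand was used in counting is not stated.

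Genes apart between the mutants differed in the sequence upstream of their starts, a feature the comparison did not use. PRC2 is known to occupy promoters rich in CpG dinucleotides. Over the 250 bases before the annotated start, 12755 protein-coding genes compared held a median of 14 CpG (quartiles 7 and 22). The 302 genes 4-fold higher in *Suz12delta* held a median of 4 (quartiles 2 and 8), and 20.5% of them held 10 or more, against 68.1% of all. For the 313 genes 4-fold higher in *Eednull* the median was 10 (quartiles 5 and 19), and 52.1% held 10 or more. Leaving out histone genes, which are clustered and share sequence, the median stayed at 10 over 269 genes. Genes 4-fold apart between CJ7 and E14 were also poorer in CpG than the rest, with a median of 6 over 307 genes. The sets were not matched to all genes for expression level, and the part of level in these CpG counts was not tested.

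**Figure D2:**
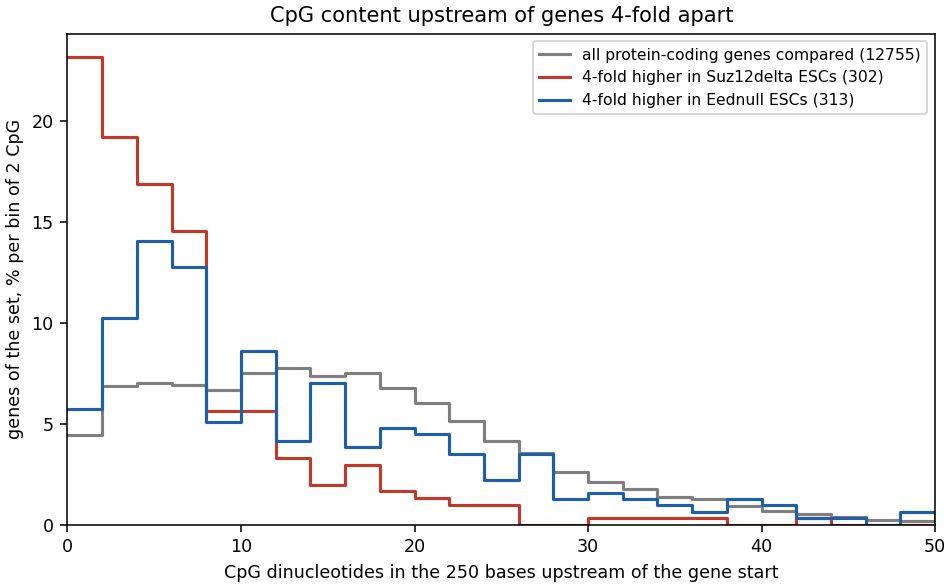
Percent of genes (y axis) by the number of CpG dinucleotides in the 250 bases upstream of the gene start, in bins of 2 (x axis), for all 12755 protein-coding genes compared, 302 that were 4-fold higher in *Suz12delta* and 313 that were 4-fold higher in *Eednull* ESCs. The *Suz12delta* curve is highest at the left edge (median 4), the *Eednull* curve lies between it and all genes (medians 10 and 14).

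Windows of some named genes are shown as examples, and they do not stand for either set. No CpG-rich gene higher in *Suz12delta* is among them, though 20.5% of that set held 10 or more CpG. The windows below are the 250 bases before the GENCODE vM1 gene start, read 5′ to 3′ on the gene's strand from NCBI build 37, with each CpG in capitals. *Olig2* (chr16:91225545-91225794, plus strand, 22 CpG) and *Fgf5*, an epiblast growth factor gene (chr5:98682953-98683202, plus strand, 24 CpG), were higher in *Eednull*, and 25.1% and 20% of protein-coding genes held as many CpG or more. *Nr1h5*, a nuclear receptor gene (chr3:102768057-102768306, minus strand, 3 CpG), had the lowest ratio of all genes named here. *Lyz2*, the lysozyme of macrophages (chr10:116719378-116719627, minus strand, 1 CpG), had the highest.
Olig2: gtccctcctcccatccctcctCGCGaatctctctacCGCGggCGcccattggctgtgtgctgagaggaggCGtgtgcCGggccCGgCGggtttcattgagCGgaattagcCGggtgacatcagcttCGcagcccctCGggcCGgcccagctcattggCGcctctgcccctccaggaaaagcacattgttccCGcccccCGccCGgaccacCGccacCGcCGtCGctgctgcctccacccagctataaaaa
Fgf5: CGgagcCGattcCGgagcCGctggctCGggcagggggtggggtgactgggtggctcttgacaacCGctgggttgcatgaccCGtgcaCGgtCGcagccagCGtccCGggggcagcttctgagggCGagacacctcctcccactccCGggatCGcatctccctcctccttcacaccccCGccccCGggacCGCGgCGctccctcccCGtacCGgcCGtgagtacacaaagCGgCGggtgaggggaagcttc
Nr1h5: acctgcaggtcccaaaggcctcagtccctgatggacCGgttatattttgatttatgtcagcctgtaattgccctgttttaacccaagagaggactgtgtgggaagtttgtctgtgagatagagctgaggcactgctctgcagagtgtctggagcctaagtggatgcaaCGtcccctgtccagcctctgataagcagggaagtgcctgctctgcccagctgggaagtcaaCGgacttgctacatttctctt
Lyz2: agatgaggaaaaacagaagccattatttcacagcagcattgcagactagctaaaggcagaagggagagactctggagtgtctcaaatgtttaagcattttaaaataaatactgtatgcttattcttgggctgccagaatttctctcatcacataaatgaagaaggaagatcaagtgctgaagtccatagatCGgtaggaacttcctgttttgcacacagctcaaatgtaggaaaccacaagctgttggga

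Pluripotency genes were mostly lower in *Suz12delta* ESCs. Of 27 compared, 14 were 2-fold higher in *Eednull* and 1, *Dppa3*, in *Suz12delta* (12.8 against 6.19 FPKM), and the median was -1.10. *Sox2*, a core factor of the ESC network, was at 11.9 FPKM in *Suz12delta*, 58.7 FPKM in *Eednull*, 67.1 FPKM in E14 and 78.0 FPKM in CJ7. *Pou5f1*, which encodes OCT4, was at 58.1 FPKM against 149 FPKM, with 130 and 142 FPKM in the wild types. In both cases *Eednull* was close to the wild types and *Suz12delta* was below them. *Nanog* was less apart, at 88.0 FPKM in *Suz12delta* and 107 FPKM in *Eednull*, below 155 and 147 FPKM in the wild types. *Klf5*, *Fgf4* and *Sall4* were lower in *Suz12delta* by log2 ratios of -2.38, -2.29 and -1.70, whereas *Esrrb*, *Klf4* and *Tcl1* had ratios of -0.23, -0.16 and -0.16. The last 3 were low in both mutants: *Esrrb* was at 25.9 and 30.5 FPKM beside 99.3 FPKM in E14 and 67.0 FPKM in CJ7. At least 2-fold below both wild types were 16 of the 27 genes in *Suz12delta* and 3 in *Eednull* ESCs, against 11.9% and 1.49% of all genes.

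Genes of the primed epiblast, the state that follows naive pluripotency in the embryo, had the lowest median of the 26 lists, -2.02. Of 10 compared, 8 were 2-fold higher in *Eednull*, against 15.5% of all genes. *Fgf5* was at 0.420 FPKM in *Suz12delta* and 6.38 FPKM in *Eednull*, with 1.74 FPKM in E14 and 1.06 FPKM in CJ7, so the mutants lay on opposite sides of the wild types. *Otx2*, a forebrain and epiblast transcription factor, was at 2.31 FPKM against 12.5 FPKM, with 15.8 and 6.19 FPKM in the wild types. The zinc finger gene *Zic2* was at 1.79 FPKM in *Suz12delta* and 13.5 FPKM in *Eednull*, below 20.1 and 23.0 FPKM in the wild types. The exception was *Cdh2*, N-cadherin, at 16.6 FPKM in *Suz12delta* and 7.55 FPKM in *Eednull*. The de novo DNA methyltransferases *Dnmt3a* and *Dnmt3b* were at 7.58 and 28.4 FPKM in *Suz12delta* against 23.2 and 53.1 FPKM in *Eednull*. Over 10 DNA methylation enzymes, 4 (*Dnmt3a*, *Tdg*, *Tet1* and *Uhrf1*) were 2-fold higher in *Eednull* and none in *Suz12delta*, with a median of -0.73.

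**Figure D3:**
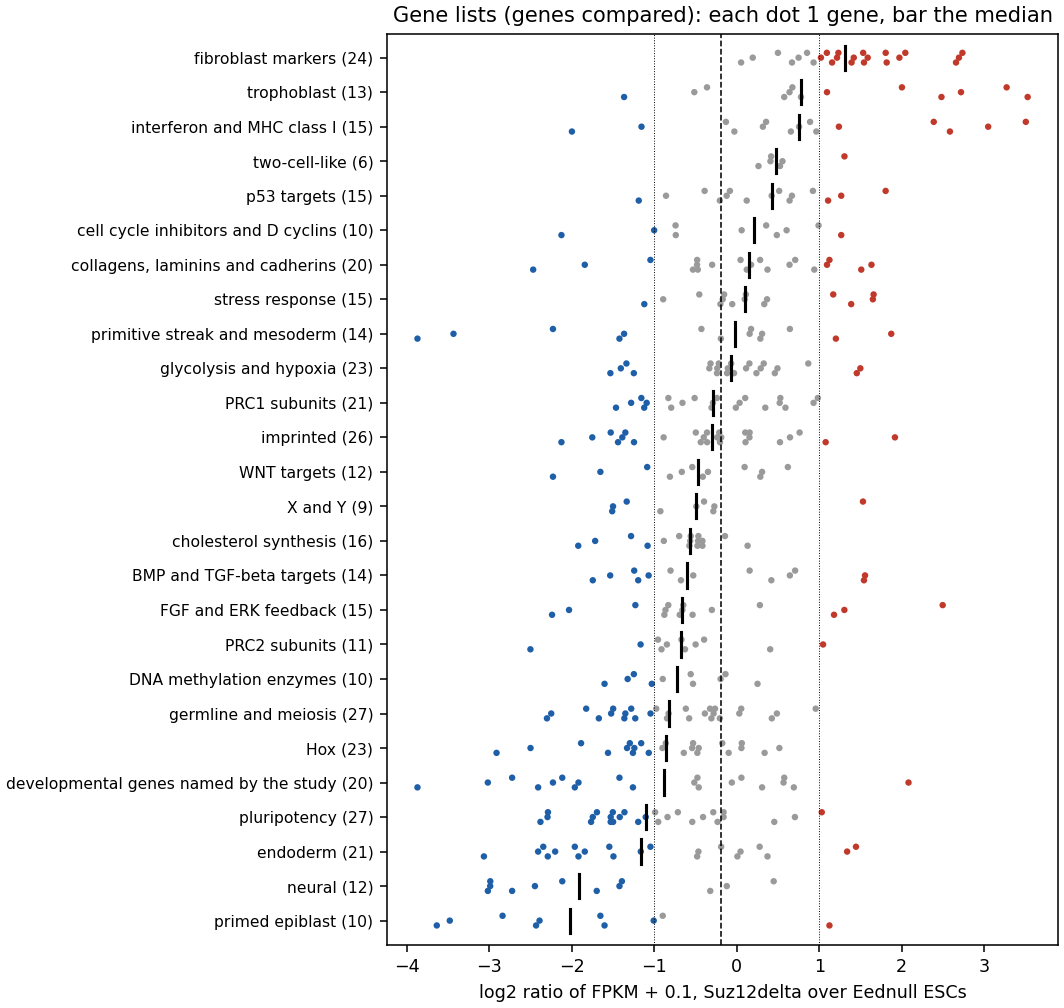
Each dot is 1 compared gene of 1 of the 26 lists (number compared in brackets), placed by its log2 ratio of *Suz12delta* over *Eednull* ESCs; bars are list medians, red and blue dots are 2-fold higher in *Suz12delta* and *Eednull*, and the dashed line is the median of all genes, -0.19. Fibroblast markers (1.31), trophoblast (0.78) and interferon genes (0.76) have the highest medians, and primed epiblast (-2.02), neural (-1.91) and endoderm genes (-1.16) the lowest.

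Endoderm genes were raised over the wild types in both mutants, and further in *Eednull*. Of 21 compared, 12 were 2-fold higher in *Eednull* and 2 (*Cited1* and *Pdgfra*) in *Suz12delta*, with a median of -1.16. At least 2-fold above both wild types were 19 of them in *Eednull*, 16 in *Suz12delta* and 16 in both. Over all genes these shares were 5.66%, 11.6% and 3.71%. *Gata4*, which directs primitive endoderm, was at 11.4 FPKM in *Eednull* and 2.94 FPKM in *Suz12delta*, with 0.653 FPKM in E14 and 1.27 FPKM in CJ7. *Sox17*, an endoderm transcription factor, followed at 3.90, 0.653, 0.108 and 0.0824 FPKM in the same order. *Foxa2*, a pioneer factor of definitive endoderm, was at 2.61 FPKM in *Eednull* and 0.433 FPKM in *Suz12delta*. The matrix genes of that list were divided. *Lama1* and *Lamc1*, which encode laminin chains, were at 24.5 and 63.8 FPKM in *Eednull* against 6.76 and 30.8 FPKM in *Suz12delta*. *Col4a1* was at 21.2 and 21.9 FPKM and *Sparc* at 287 and 348 FPKM. *Afp*, a marker of visceral endoderm, was under 1 FPKM in both and was not compared.

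Trophoblast genes lay the other way. Of 13 compared, 6 were 2-fold higher in *Suz12delta* and 1, *Eomes*, in *Eednull*, beside 10.7% and 15.5% of all genes. The median was 0.78. *Hand1*, a transcription factor of trophoblast giant cells, was at 17.9 FPKM in *Suz12delta*, 2.63 FPKM in *Eednull*, 0.198 FPKM in E14 and 0.722 FPKM in CJ7. The reproductive homeobox genes *Rhox6* and *Rhox9*, which are clustered on the X chromosome, were at 35.8 and 39.7 FPKM in *Suz12delta* and at 3.62 and 3.35 FPKM in *Eednull*, with 0.555 to 1.33 FPKM in the wild types. Keratin *Krt7* was at 27.6 FPKM against 4.86 FPKM and the placental homeobox gene *Esx1* at 19.3 FPKM against 4.73 FPKM. All 5 were thus highest in *Suz12delta*, next in *Eednull* and lowest in the wild types. *Rhox6*, *Rhox9* and *Esx1* are X-linked, and of all X-linked genes compared 18.4% were 2-fold higher in *Suz12delta* ESCs. Of the factors that define trophoblast stem cells, *Cdx2* was at 1.80 FPKM in *Suz12delta* and 2.62 FPKM in *Eednull*, *Eomes* at 0.848 and 2.34 FPKM, and *Elf5* was under 1 FPKM in both. *Cdx2* and *Eomes* thus did not share the direction of *Hand1* and *Krt7*.

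Neural and Hox genes were higher in *Eednull*. Of 12 neural genes, 9 were 2-fold higher in *Eednull* and none in *Suz12delta*, with a median of -1.91. *Nkx6-2* and *Nkx2-2*, homeobox genes of ventral neural progenitors, were at 0.466 and 0.133 FPKM in *Suz12delta* and at 4.40 and 1.17 FPKM in *Eednull*. *Sox3*, a neural progenitor factor, was at 0.494 FPKM in *Suz12delta* beside 4.61 FPKM in *Eednull* and 3.14 and 3.13 FPKM in the wild types. Of 23 Hox genes, which set position along the body axis, 10 were 2-fold higher in *Eednull* and none in *Suz12delta*. In both mutants 14 of the 23 were 2-fold above both wild types, against 3.71% of all genes. *Hoxd9* was at 3.45 FPKM in *Eednull* and 0.528 FPKM in *Suz12delta*, with 0.0703 and 0.369 FPKM in the wild types, and *Hoxd13* at 6.55 FPKM and 2.71 FPKM, with 0.786 and 0.794 FPKM. *Hoxa11* (2.20 FPKM in *Suz12delta*, 2.11 FPKM in *Eednull*) and *Hoxc10* (1.23 and 1.33 FPKM), chosen after their values were seen, were at like levels in the mutants and at 0.0991 FPKM or less in the wild types. Primitive streak and mesoderm genes were divided, with a median of -0.02. Of 14, 2 were 2-fold higher in *Suz12delta* and 5 in *Eednull*, beside 10.7% and 15.5% of all genes. *T*, which encodes Brachyury, was at 2.36 FPKM in *Suz12delta* and 11.4 FPKM in *Eednull*, and *Tbx4*, a limb and allantois gene, at 5.14 and 1.33 FPKM.

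**Figure D4:**
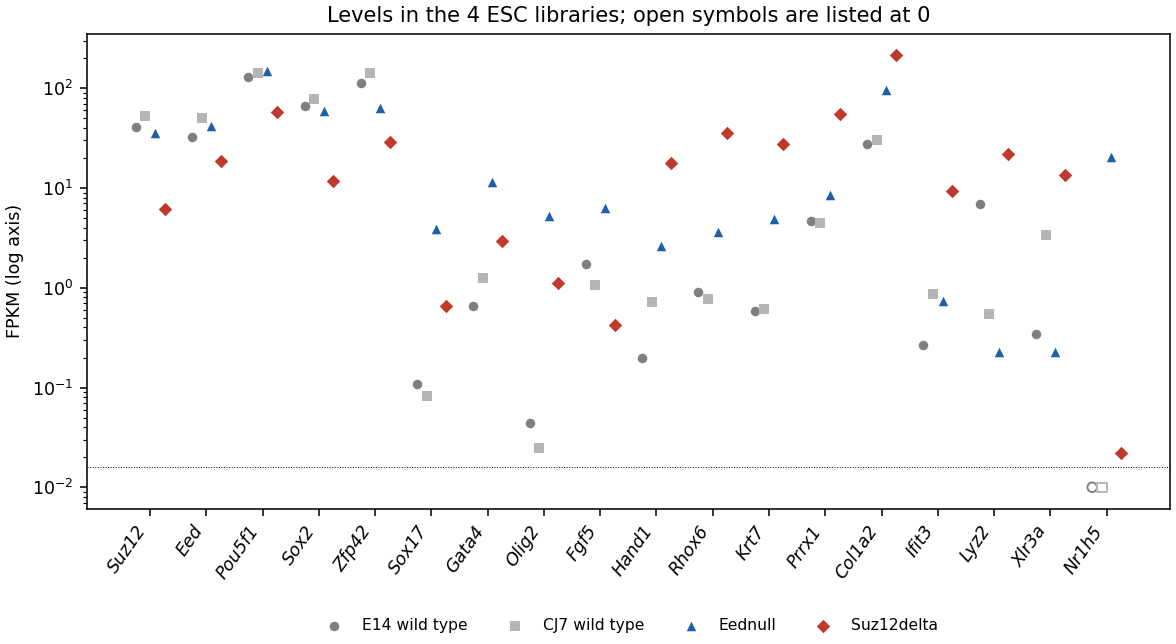
FPKM (log axis) of 18 named genes in the 4 ESC libraries, 1 symbol per library; open symbols below the dotted line are values listed at 0. *Sox2* is low in *Suz12delta* alone (11.9 FPKM), *Gata4* and *Olig2* are highest in *Eednull*, *Hand1*, *Rhox6* and *Krt7* are highest in *Suz12delta*, and *Nr1h5* is at 20.5 FPKM in *Eednull* and near or at 0 elsewhere.

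Markers of fibroblasts, the cells on which all lines were grown, were higher in *Suz12delta*. All 24 had ratios above 0 and 17 were at least 2-fold higher, with a median of 1.31. Their summed level was 1469 FPKM in *Suz12delta*, 676 FPKM in *Eednull*, 275 FPKM in E14 and 267 FPKM in CJ7. *Prrx1*, a mesenchymal transcription factor, was at 55.5 FPKM in *Suz12delta*, 8.50 FPKM in *Eednull*, 4.69 FPKM in E14 and 4.44 FPKM in CJ7. The collagen gene *Col1a2* was at 215, 96.5, 27.4 and 30.4 FPKM in the same order. None of the defining markers *Col1a1*, *Col1a2*, *Col3a1*, *Thy1*, *Lum*, *Dcn* and *Postn* was at 0 in any ESC library, and the lowest was *Lum*, at 0.132 FPKM in E14. In a bulk library, a larger number of such cells and more of these transcripts per cell cannot be told apart. The part these cells took in the differences of the other lists, including the lower pluripotency genes of *Suz12delta*, was not tested.

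Several secreted and immune genes were among the 12 highest ratios in favour of *Suz12delta*. *Lyz2* (chromosome 10, 116714390 to 116719377, minus strand) was at 21.7 FPKM in *Suz12delta*, 0.229 FPKM in *Eednull*, 6.94 FPKM in E14 and 0.551 FPKM in CJ7, a ratio of 66.3-fold. The chemokine genes *Ccl6* and *Cxcl5* were at 18.7 and 18.1 FPKM against 0.235 and 0.407 FPKM. *Prl2c2*, a prolactin-family gene known as proliferin, was at 11.9 FPKM against 0.400 FPKM, and the serine protease inhibitor *Serpina3n* at 6.46 FPKM against 0.190 FPKM. Wild-type values of these 4 genes were between 0.257 and 1.21 FPKM. Of 13 CC and CXC chemokine ligands compared, a list made after the values were seen, 9 were 2-fold higher in *Suz12delta* and 1, *Ccl17*, in *Eednull*. *Ccl2* was at 55.4 FPKM against 2.45 FPKM. Of 7 macrophage markers compared, also listed afterwards, 4 were 2-fold higher in *Suz12delta*, namely *Lyz1*, *Lyz2*, *Csf1r* and *Mpeg1*. The pan-leukocyte marker *Ptprc* was at 0.228 FPKM in *Suz12delta* and 0.116 FPKM in *Eednull*, *Csf1r*, a receptor of macrophages, at 1.17 and 0.276 FPKM, while *Laptm5* was at 20.2 and 17.4 FPKM. *Emr1*, *Tyrobp*, *Fcer1g* and *Ctss* were listed at 0 in *Eednull* and lay between 0.807 and 5.14 FPKM in *Suz12delta* ESCs. All 14 macrophage genes in the table summed to 77.7 FPKM in *Suz12delta*, 30.3 FPKM in *Eednull*, 50.6 FPKM in E14 and 29.7 FPKM in CJ7, and their part in the chemokine values was not tested.

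Some interferon-stimulated genes were higher in *Suz12delta* than *Eednull* ESCs. Of 15 interferon and MHC class I genes, 5 were 2-fold higher in *Suz12delta* and 2 in *Eednull*, with a median of 0.76. *Ifit3* was at 9.43 FPKM in *Suz12delta*, 0.740 FPKM in *Eednull*, 0.266 FPKM in E14 and 0.875 FPKM in CJ7. *Irf7*, which amplifies the interferon response, was at 9.29 FPKM against 1.03 FPKM, *Isg15* at 19 FPKM against 3.55 FPKM and *Ifit1* at 6.24 FPKM against 0.957 FPKM. The class I gene *H2-D1* was less than 2-fold apart, at 15 FPKM in *Suz12delta* and 9.51 FPKM in *Eednull*. *Irf1* and the immunoproteasome gene *Psmb8* were higher in *Eednull* (40.7 against 10.1 FPKM and 6.69 against 2.95 FPKM). At day 5 *Ifit1*, *Ifit3*, *Irf7* and *Isg15* were between 0.307 and 1.72 FPKM in both mutants.

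The Xlr genes, X-linked lymphocyte-regulated genes of which most are near-identical copies in a cluster, were higher in *Suz12delta* wherever they were compared. The gene *Xlr* itself was not compared, at 0.326 FPKM in *Suz12delta* and 0.405 FPKM in *Eednull* ESCs. Symbols beginning with Xlr numbered 13 among the genes compared, and all 13 were at least 4-fold higher in *Suz12delta*, with ratios from 3.82 to 5.38 and a median of 4.81. This family was picked after the values were seen. *Xlr3a* (X chromosome, 70331632 to 70342434, minus strand) was at 13.5 FPKM in *Suz12delta* and 0.226 FPKM in *Eednull* ESCs, with 0.342 FPKM in E14 and 3.37 FPKM in CJ7. At day 5 it was at 24.5 FPKM against 0.387 FPKM. Reads of these genes cannot be placed with certainty: of all windows of 40 bases in the annotated transcripts of *Xlr3b* and *Xlr3c*, 91.5% and 77.4% also occurred in another Xlr gene. Their upstream windows are printed to show how alike the copies are (chrX:70437296-70437545, plus strand, and chrX:70510730-70510979, minus strand, CpG in capitals, 6 in each). At the best ungapped offset, 237 of 242 bases were alike. The values of single Xlr genes are therefore uncertain, and the family is better read as 1 signal.
Xlr3b: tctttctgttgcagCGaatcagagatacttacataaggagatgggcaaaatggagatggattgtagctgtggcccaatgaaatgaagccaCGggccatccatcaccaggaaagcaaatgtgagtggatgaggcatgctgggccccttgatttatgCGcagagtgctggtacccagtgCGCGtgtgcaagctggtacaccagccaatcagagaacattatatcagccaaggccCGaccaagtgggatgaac
Xlr3c: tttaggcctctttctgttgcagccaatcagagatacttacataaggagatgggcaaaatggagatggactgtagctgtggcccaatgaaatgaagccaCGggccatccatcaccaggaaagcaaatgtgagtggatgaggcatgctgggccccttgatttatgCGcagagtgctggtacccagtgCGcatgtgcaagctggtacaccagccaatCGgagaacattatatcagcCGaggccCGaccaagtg

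Histone genes were higher in *Eednull* ESCs. Replication-dependent histone genes supply histones in S phase, and their mRNAs end in a stem-loop in place of a poly(A) tail. Of 69 symbols beginning with Hist compared, a group also picked after the values were seen, 67 were 2-fold higher in *Eednull* and none in *Suz12delta*, with a median of -2.66. Summed over the 70 in the table they were at 285 FPKM in *Suz12delta*, 1417 FPKM in *Eednull*, 1075 FPKM in E14 and 1623 FPKM in CJ7. *Suz12delta* was thus the library apart, and it was 2-fold below both wild types for 61 of the 69, against 11.9% of all genes. *Hist1h3g* was at 0.639 FPKM in *Suz12delta* and 20 FPKM in *Eednull*, with 9.21 and 22.9 FPKM in the wild types. Copies of histone H3 share sequence, and 57% of the windows of 40 bases in *Hist1h3g* occurred in another Hist1h3 gene. The exceptions were *Hist1h1c* and *Hist1h2bc*, with ratios of -0.65 and -0.77. Small nucleolar RNAs, which also lack a poly(A) tail, lay the same way: of 160 snoRNA genes, 47.5% were 2-fold higher in *Eednull* and 8.75% in *Suz12delta*, beside 15.3% and 9.88% of 12759 protein-coding genes. Of 26 genes annotated as miscellaneous RNA, 65.4% were 2-fold higher in *Eednull* and 11.5% in *Suz12delta*, as for the histones. Of 56 small nuclear RNA genes, whose RNAs lack that tail too, 16.1% were 2-fold higher in *Eednull* and 30.4% in *Suz12delta*. For 33 microRNA genes these shares were 18.2% and 27.3%, so the classes of small RNA did not share 1 direction. Libraries were size-selected against small fragments, so values of such short RNAs are uncertain. How the RNA was selected is not given in the sources used here, and the part of library preparation in the histone difference was not tested. At day 5 the summed histone levels were 564 FPKM in *Suz12delta* and 561 FPKM in *Eednull* cells.

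Among single genes, *Nr1h5*, the nuclear receptor gene named above (chromosome 3, 102743581 to 102768056, minus strand), stood at 0.0221 FPKM in *Suz12delta* and 20.5 FPKM in *Eednull* ESCs, and both wild types list it at 0. At day 5 it was at 5.6 FPKM in *Eednull* and listed at 0 in *Suz12delta* cells. *Capn3*, a calcium-dependent protease gene, was low in *Suz12delta* alone, at 0.0791 FPKM beside 5.92, 5.63 and 5.90 FPKM in *Eednull*, E14 and CJ7. It overlaps *Ganc* on the same strand, so its reads can be shared. *Fgf8*, a growth factor of the primitive streak, was at 0.974 FPKM in *Suz12delta*, 15.6 FPKM in *Eednull*, 20.5 FPKM in E14 and 2.93 FPKM in CJ7, so the wild types were themselves apart.

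Imprinted genes, expressed from 1 parental allele, were divided, with 2 of 26 2-fold higher in *Suz12delta*, 7 in *Eednull* and a median of -0.30. The shares over all genes were 10.7% and 15.5%. The fetal growth factor *Igf2* was at 166 FPKM in *Suz12delta* and 43.9 FPKM in *Eednull*, with 10.3 and 17.8 FPKM in the wild types, and its receptor *Igf2r* at 31.3 and 14.8 FPKM. *Cdkn1c*, an inhibitor of the cell cycle, was at 3.06 FPKM against 13.7 FPKM and *Mest* at 40.1 FPKM against 116 FPKM. *Mest* was already unlike between the wild types, at 3.57 FPKM in E14 and 62.8 FPKM in CJ7. Germline and meiosis genes, many of them kept silent by DNA methylation, were 2-fold higher in *Eednull* for 11 of 27 and in *Suz12delta* for none. *Syce2*, of the synaptonemal complex, was at 7.81 FPKM against 37.5 FPKM, with 28.8 and 43.3 FPKM in the wild types.

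The counts of the signalling and metabolic lists are read beside 10.7% of all genes higher in *Suz12delta* and 15.5% higher in *Eednull*, and many lie near them. Feedback genes of FGF and ERK signalling were divided, with 3 of 15 at least 2-fold apart each way. *Spry1* and *Etv5* were lower in *Suz12delta* (1.86 against 9.16 FPKM and 22.2 against 91.3 FPKM) and *Fosl1* was higher (6.63 against 1.09 FPKM). Of 14 BMP and TGF-beta targets, *Id1* and *Id3*, direct targets of BMP, were 2-fold higher in *Suz12delta* (38.3 against 13 FPKM and 60.6 against 20.7 FPKM). In *Eednull* 5 were 2-fold higher, among them *Lefty1* (158 against 47.1 FPKM). None of 12 WNT targets was 2-fold higher in *Suz12delta* and 3 were in *Eednull* (*T*, *Lef1* and *Notum*). Ratios were above 0 for 4 of the 12 and below 0 for 8. Of 10 cell cycle inhibitors and D cyclins, 1 was 2-fold higher in *Suz12delta* and 2 in *Eednull*, with a median of 0.21 and with *Cdkn1a* at 78.6 FPKM in *Suz12delta* and 32.6 FPKM in *Eednull*. Of 15 p53 targets, 3 (*Cdkn1a*, *Mdm2* and *Fas*) were 2-fold higher in *Suz12delta* and 1, *Pmaip1*, in *Eednull*. Medians were -0.07 for glycolysis and hypoxia genes, -0.56 for cholesterol synthesis, 0.10 for stress genes, 0.15 for collagens, laminins and cadherins and 0.47 for genes of the two-cell-like state, and 2 of 23, none of 16, 4 of 15, 4 of 20 and 1 of 6 were 2-fold higher in *Suz12delta*. In *Eednull* the counts were 4, 4, 1, 3 and none. Centred on the median of all genes, the medians of the glycolysis list and of the streak and mesoderm list were above 0. The pluripotency counts were then 1 in *Suz12delta* and 13 in *Eednull*, the endoderm counts 2 and 10, the Hox counts 0 and 8 and the fibroblast counts 19 and 0.

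Differences were spread over the autosomes, and the X chromosome and the mitochondrial genome lay above them. The median ratio of the 831 X-linked genes was 0.31 above that of autosomal genes on the log2 scale, and 18.4% were 2-fold higher in *Suz12delta* beside 10.7% of all genes. Of 4 Rhox symbols compared, a family listed after the values were seen, 3 were 2-fold higher in *Suz12delta*. Without Xlr and Rhox symbols the gap was 0.29 over 814 genes. At day 5 the X chromosome median was 0.02 above the autosomes, while 14.4% of its genes were 2-fold higher in *Suz12delta*, beside 4.89% of all genes. Genes of the mitochondrial genome, 37 in number, lay 0.55 above the autosomes in ESCs and 0.54 at day 5, and 13.5% of them were 2-fold higher in each ESC line. Autosomal medians lay between -0.15 (chromosome 13) and 0.11 (chromosome 6) of the autosomal median, and chromosome 13, which carries the main histone cluster, moved to -0.05 without Hist symbols. Chromosome 6 was also the highest autosome at day 5, at 0.19, where 8.65% of its genes were 2-fold higher in *Suz12delta*. *Xist*, the RNA of X inactivation, was at 15.1 FPKM in *Suz12delta*, 5.18 FPKM in *Eednull*, 4.55 FPKM in E14 and 6.64 FPKM in CJ7. It overlaps *Tsix* on the other strand, and reads of the pair cannot be told apart without strand. Of 9 X and Y genes listed, *Xist* was 2-fold higher in *Suz12delta* and *Tsix*, *Eif2s3y* and *Uty* in *Eednull*. The Y-linked genes *Eif2s3y* and *Uty* were at 12.3 and 1.45 FPKM in *Suz12delta* against 35 and 4.3 FPKM in *Eednull* ESCs. At day 5 they were at 0.714 and 0.14 FPKM in *Suz12delta* and at 25.4 and 6.2 FPKM in *Eednull*, so these genes were lower in the *Suz12delta* day 5 library than in the *Suz12delta* ESC library. Whether these libraries held the same cells was not tested, and every comparison of ESCs with day 5 rests on them.

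Some of the genes 4-fold apart in ESCs were apart the same way at day 5. Among 15206 genes above 0 in both day 5 libraries, 744 (4.89%) were 2-fold higher in *Suz12delta* and 132 (0.868%) in *Eednull*. Of the 356 genes 4-fold higher in *Suz12delta* ESCs, 99 (27.8%) were 2-fold higher there at day 5 and 10 (2.81%) went the other way. Of the 390 genes 4-fold higher in *Eednull* ESCs, 23 (5.90%) were so at day 5 and 20 (5.13%) were higher in *Suz12delta*. Across genes, which are not replicates and share these 4 libraries, Pearson's r between the 2 sets of ratios was 0.16 and Spearman's rho 0.03. At least 4-fold apart the same way at both stages were 24 genes other than small RNAs, predicted genes, clones and pseudogenes. Of these, 22 were higher in *Suz12delta*, and 14 of the 22 were X-linked, 9 of them Xlr genes. *Rhox6* (22.8 against 3.97 FPKM at day 5) and *Rhox9* (29.0 against 3.22 FPKM) were also among the 22, as were *Ccl2*, the matrix metalloproteinase *Mmp3* and the glycoprotein *Gpnmb*. The other 2, *Slc15a2*, a peptide transporter gene, and *Lyrm7*, a mitochondrial assembly factor gene, were higher in *Eednull*. Genes listed at 0 in a day 5 library, such as *Nr1h5*, are not in these counts. Some pluripotency genes lay on the other side at day 5. *Pou5f1* was at 2.12 FPKM in *Suz12delta* and 0.340 FPKM in *Eednull* at day 5, and *Lefty2* at 0.777 and 0.12 FPKM.

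**Figure D5:**
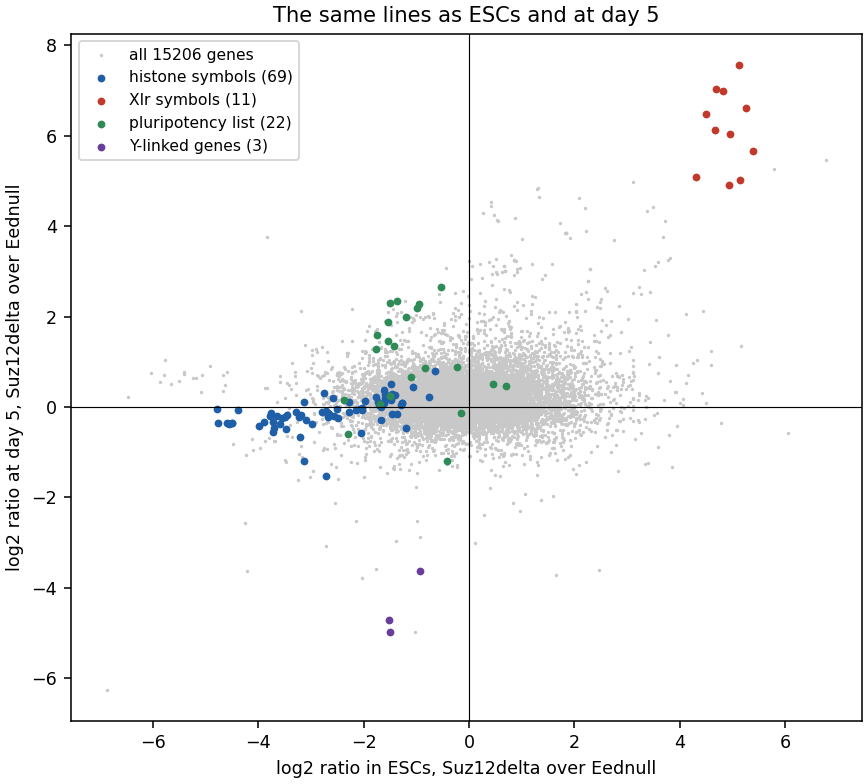
Each point is 1 of 15206 genes, with its log2 ratio of *Suz12delta* over *Eednull* in ESCs on the x axis and at day 5 on the y axis. Xlr symbols lie at 3.82 or higher on the x axis and at 4.92 or higher on the y axis, histone symbols spread along the x axis near 0 on the y axis, most of the 22 pluripotency genes shown lie left of 0 and above 0, and the 3 Y-linked genes lie at -3.63 (*Ddx3y*) or lower at day 5.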

How the data were processed

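RNA-seq values of 8 libraries were in the table, and 6 of them were used. The deposited values were FPKM. The authors had aligned reads with Bowtie 0.12.7 and TopHat 1.3.2 and estimated transcript levels with Cufflinks 1.2.1 and Cuffdiff, correcting for bias and sharing reads that map to several places, on NCBI build 37 with Ensembl gene models. Strand of counting, RNA selection and reads per library were not given in the sources used here. Day 5 values of E14 and *Suz12GT* were not used here.

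From these values log2((FPKM + 0.1)/(FPKM + 0.1)) was computed as deposited, and genes were called at 2-fold and 4-fold. With 1 library per condition no test was possible, and the precision of a value is unknown. The members, the 26 gene lists and the lists of Hist, Xlr, Rhox, chemokine and macrophage genes were chosen with earlier results of these data known. Named genes were the 12 highest and 12 lowest ratios at 5 FPKM or more in the higher library, without small RNA, predicted, clone and pseudogene symbols, up to 8 members of each list by size of ratio, list members 4-fold apart, and a few fixed genes. Others were named after their values were seen. The values of 1 list member are not reported here. Coordinates and upstream sequence came from GENCODE vM1 and NCBI build 37, which annotated 15404 of the 15467 genes. The calculation was tested on simulated data. Other pseudocounts, minima, scalings and fold limits were tried. Python 3.11.15, NumPy 2.4.6, pandas 2.3.3, SciPy 1.17.1 and matplotlib 3.10.9 were used.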

Additional observations from a re-analysis of the deposited data

Results flagged for a closer look

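For 15 of the 161 named genes at least 2-fold apart in ESCs, the *Suz12delta* over *Eednull* ratio was at least 2-fold the other way at day 5. Each stage has 1 library per line, so the difference between stages was not tested. All 15 were lower in *Suz12delta* ESCs and higher in *Suz12delta* at day 5. At day 5 all genes leaned that way, with 4.89% 2-fold higher in *Suz12delta* and 0.868% in *Eednull*. Of genes 4-fold higher in *Eednull* ESCs, 5.13% were 2-fold higher in *Suz12delta* at day 5, near the share over all genes. On the log2 scale, the pluripotency and signalling genes had these ratios in ESCs and at day 5. *Pou5f1* had -1.36 and 2.34, *Fgf4* -2.29 and 1.36, *Klf2* -1.53 and 1.47, and *Utf1* -1.77 and 1.28. The NODAL pathway genes *Nodal*, *Lefty1* and *Lefty2* had -1.53, -1.75 and -1.2 in ESCs and 1.89, 1.59 and 1.99 at day 5. *Etv5*, an ERK-responsive transcription factor, had -2.03 and 1.09, and *Notum*, a WNT antagonist, -1.09 and 1.2. The meiosis genes *Hormad1*, *Sycp1* and *Sycp3* had -1.35, -2.3 and -1.83 in ESCs and 2.94, 1.19 and 1.02 at day 5. The homeobox genes *Hoxa4* and *Nkx6-2* had -2.91 and -2.99 in ESCs and 1.28 and 1.14 at day 5. *Egln3*, an oxygen-sensing hydroxylase, had -1.25 and 1. *Fgf4* and *Hormad1* were listed at 0 in *Eednull* at day 5, so their day 5 ratios rest on the pseudocount. *Nodal*, *Lefty2*, *Nkx6-2* and *Sycp3* were under 1 FPKM in both day 5 libraries.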

How the results depend on the processing

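No paired analysis was possible because each condition has 1 library. With a pseudocount of 1, 1582 genes were 2-fold higher in *Eednull*, 136 and 165 were 4-fold higher in *Suz12delta* and *Eednull*, the median log2 ratio was -0.1685, and 3 lists had a median of at least 1 in size, where 5 did as reported. With a minimum of 5 FPKM the 2-fold counts were 924 and 1572, the 4-fold counts 202 and 238, the median -0.236, and 9 lists were that far from 0. With no filter on low values they were 3153 and 6041, 978 and 1506, and -0.2961. Scaling to the 75th percentile gave a median of 0.0048 and centring gave 0, with 3 such lists under each. Without small RNA, predicted, clone and pseudogene symbols the 4-fold counts were 261 and 278 and the median -0.2262. Taking genes 2-fold apart in ESCs, 14.8% and 2.20% were so at day 5, and with centring 22.2% and 9.06%. With 4-fold beyond wild type, *Eednull* was below both for 7 and above both for 45 genes, and *Suz12delta* below both for 156. With a minimum of 5 FPKM the X chromosome, chromosome 6 and chromosome 13 lay at 0.295, 0.1184 and -0.2044 from the autosomes. Leaving out Xlr and Rhox symbols gave 0.2886 for X, and leaving out Hist symbols gave -0.0459 for chromosome 13; these settings were chosen after seeing the data. Of 161 named genes at least 2-fold apart, 142 stayed so with a pseudocount of 1, 147 with 75th percentile scaling and 148 with centring. None of the alternatives could reverse a gene that far apart, so an unchanged direction is no check. The depth of these libraries is unknown, so low values have no stated precision.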
